A study of Mus musculus with 12 samples.

Results

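The TRAV10 family of the mouse T cell receptor alpha (TRA) locus comprises the V segments TRAV10, TRAV10D and TRAV10N, and all 3 were found in the 12 libraries among 99 V segments. Members were the productive clonotypes whose best V match was one of these segments, where productive means a covered CDR3 with no frameshift and no stop codon. They made up 5672 of 163279 productive TRA rows, and after rows with the same V segment, J segment and CDR3 nucleotides in a library were merged, 5566 of 156980 clonotypes. These clonotypes held 12325 of 341219 productive TRA reads and spelled 3353 of 80161 distinct amino acid joins, a join being 1 CDR3 amino acid sequence with its V family and J segment. Of the 5566 clonotypes, 2199 rested on 1 read.

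Thymocytes of Chrna9 KO mice (KO), which lack the alpha 9 subunit of the nicotinic acetylcholine receptor, were compared with those of wild-type mice (WT) in a study of how acetylcholine signalling bears on negative selection. Thymocytes were sorted by flow cytometry on CD4 and CD8 into mature CD4 (CD4SP, single-positive) and mature CD8 (CD8SP) fractions. The 4 groups, KO CD4SP, WT CD4SP, KO CD8SP and WT CD8SP, have 3 libraries each, made from 1000000 sorted CD4SP cells or 330000 sorted CD8SP cells. The mice were 2 pairs of males and 1 pair of females, a KO and a WT mouse in each pair, and strain and age are not given in the sources used here. Libraries of 1 genotype and number were taken as the CD4SP and CD8SP cells of 1 mouse, and which number is the female pair is not stated.

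An alpha chain is made when a thymocyte joins 1 V segment to 1 J segment. The join encodes the CDR3 loop, the part of the receptor that lies over the peptide held by an MHC molecule. At the junction, bases can be trimmed, short palindromic bases (P nucleotides) can be left from hairpin opening, and untemplated bases can be added by terminal transferase. Mature CD4 cells are selected on MHC class II and mature CD8 cells on class I, so the same V segment can carry different joins in the 2 fractions. Much of the mouse V alpha cluster is duplicated, and the suffixes D and N mark copies of a segment in the duplicated blocks. In humans, TRAV10 joined to TRAJ18 forms the chain of invariant NKT cells, whereas the mouse invariant NKT chain uses TRAV11 with TRAJ18. Joins that need few added bases recur between individuals, and such recurrent joins are called public.

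All 3 copies lie on chromosome 14 (RefSeq positions on GRCm38.p6, the assembly behind mm10), in the order TRAV10D at chr14:52810997-52811496, TRAV10N at chr14:53122114-53122611 and TRAV10 at chr14:53505790-53506286, so TRAV10 is nearest to the J segments. The J cluster ran from TRAJ61 at chr14:54155005-54155076 to TRAJ2 at chr14:54217836-54217901 among the segments looked up, ahead of the constant gene TRAC at chr14:54220521-54224198. Over the 267 bases from framework 1 to framework 3 that the files give, TRAV10 and TRAV10D differed at 2 bases, T21C and T87C, and at 0 of 89 residues. TRAV10N differed from TRAV10 at 4 bases and 1 residue, I63T, counted from 1 at the start of framework 1. Bases 175 to 201 of framework 3 are shown because they hold the T188C and G195A differences, in capitals, that set TRAV10N apart from the other copies.
TRAV10: agccaaagacttaTagttttGttggat
TRAV10D: agccaaagacttaTagttttGttggat
TRAV10N: agccaaagacttaCagttttAttggat

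The joins on which the results turn are given next as the most frequent nucleotide sequence of each, from the cysteine codon to the last codon of the CDR3. Capitals mark added bases, taken as those between the aligned V end and the aligned J start. Each begins with the V segment, whose germline end in these sequences reads tgtgcagcaagca when untrimmed. The first 4 belong to TRAJ31 (chr14:54187895-54187951) and the rest to the other J segments named.
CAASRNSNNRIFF, TRAJ31: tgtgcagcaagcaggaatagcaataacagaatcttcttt
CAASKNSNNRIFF, TRAJ31: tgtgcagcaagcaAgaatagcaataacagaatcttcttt
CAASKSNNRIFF, TRAJ31: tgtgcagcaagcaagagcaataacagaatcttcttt
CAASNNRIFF, TRAJ31: tgtgcagcaagcaataacagaatcttcttt
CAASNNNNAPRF, TRAJ43: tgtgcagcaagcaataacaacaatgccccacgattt
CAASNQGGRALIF, TRAJ15: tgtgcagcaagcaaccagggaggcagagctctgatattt
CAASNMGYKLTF, TRAJ9: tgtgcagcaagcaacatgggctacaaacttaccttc
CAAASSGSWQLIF, TRAJ22: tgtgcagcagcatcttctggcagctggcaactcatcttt
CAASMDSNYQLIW, TRAJ33: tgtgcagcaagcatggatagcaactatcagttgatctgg
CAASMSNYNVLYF, TRAJ21: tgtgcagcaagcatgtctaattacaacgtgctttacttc
Only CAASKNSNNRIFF among these 10 sequences has a base marked as added, and counts of added bases follow the alignment throughout. In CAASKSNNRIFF the bases right after the V end match neither P nucleotides of that end nor the TRAJ31 start seen in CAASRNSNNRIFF. They may therefore be added bases that the alignment did not mark. In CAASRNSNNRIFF the whole V end meets the whole J start with 0 bases trimmed and 0 added, and the arginine codon spans the border. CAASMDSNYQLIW and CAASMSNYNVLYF carry the methionine codon atg, which begins with the last base of TRAV10. Its other 2 bases can be read as P nucleotides of the V end or as part of the overlapping J end.

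The libraries held 19847 to 33885 productive TRA reads, of which 744 to 1194 were TRAV10. Reads carry no molecule counts, so shares can follow amplification, and fewer cells of a kind cannot be told apart from less receptor RNA per cell. The sort gate also admits other T cells: the invariant NKT chain took 5.26% to 8.49% of productive TRA reads in CD4SP and 0.0495% to 0.0983% in CD8SP, and the MAIT chain (TRAV1 with TRAJ33) 0% to 0.0295%. Rearrangements with a delta V (TRDV) or delta J (TRDJ) best match, productive or not, made 0.697% to 1.20% of reads with a covered CDR3. They were left out of the TRA reads. They can include TRDV joined to an alpha J segment, so they are not a share of delta chains. Ties between V segments touched 30.4% to 44.2% of productive TRA reads but 0% to 0.0897% of TRAV10 reads, with 1 tied clonotype and 0 tied with another family. The libraries give no readout of Chrna9 itself.

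TRAV10 took a slightly larger share of alpha chains in CD4SP than in CD8SP cells. As a share of productive TRA reads it made 3.85%, 3.78% and 3.61% in KO CD4SP and 3.95%, 3.63% and 3.75% in WT CD4SP. In CD8SP it made 3.35%, 3.70% and 3.41% in KO and 3.62%, 3.32% and 3.55% in WT. The CD4SP share was higher within each of 6 mice, although the ranges of the 2 fractions overlapped. The means were 3.76 ± 0.132% in CD4SP and 3.49 ± 0.154% in CD8SP (SD, n = 6). The log2 fold change was 0.11 (SE 0.046, adjusted p = 0.0259, edgeR quasi-likelihood test with mouse as a block). Of 20 V families tested, 17 passed the threshold of 0.05 in that comparison (85%, of which 35% higher and 50% lower), and TRAV10 ranked 7 of 20 by log2 fold change. The median family change was -0.35, which scaling by TMM moved to -0.18 and DESeq2 size factors to -0.087, with TRAV10 at 0.28 and 0.37 under those scalings. Without KO mouse 1 the adjusted p was 0.0681 (log2 fold change 0.088), and without WT mouse 2 it was 0.0632 (0.10). Of the families whose segments carry neighbouring numbers (TRAV8, TRAV9, TRAV11, TRAV12 and TRAV13), 1 was higher in CD4SP, TRAV11 of the invariant NKT chain, 3 were lower and 1 did not pass.

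**Figure D1:**
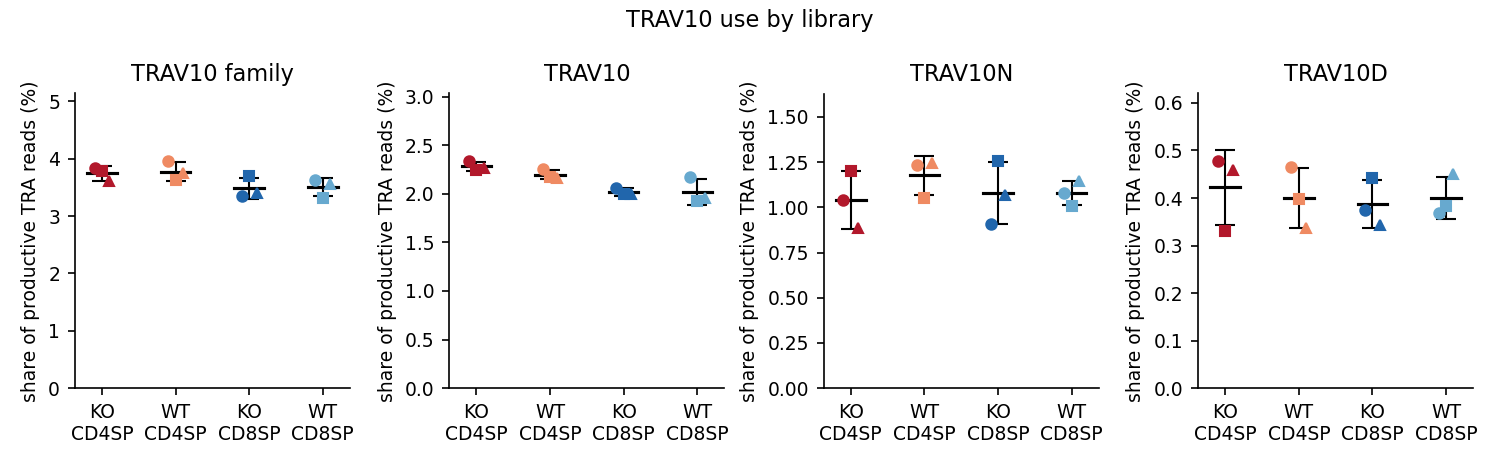
Share of productive TRA reads (%) taken by the TRAV10 family and by the segments TRAV10, TRAV10N and TRAV10D, a panel each with its own axis from 0, in KO and WT CD4SP and KO and WT CD8SP cells. Symbols are libraries (circle, square and triangle for replicates 1, 2 and 3), and the bar and whiskers are the mean and SD of 3 libraries. The family lies between 3.32% and 3.95% in every library, and of the 3 segments only TRAV10 passed the test between CD4SP and CD8SP.

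Of the 3 copies, the segment TRAV10 passed the test between the fractions on its own, and whether the copies differed in this was not tested. This copy made 2.24 ± 0.0616% of productive TRA reads in CD4SP and 2.02 ± 0.0878% in CD8SP (SD, n = 6), higher in CD4SP in 6 of 6 mice. Its libraries ran from 2.17% to 2.33% in CD4SP and from 1.93% to 2.18% in CD8SP, so they overlapped narrowly (log2 fold change 0.15, SE 0.047, adjusted p = 0.00513, edgeR). TRAV10N made 1.11 ± 0.143% in CD4SP and 1.08 ± 0.117% in CD8SP, and TRAV10D made 0.411 ± 0.0654% and 0.394 ± 0.0434%. Neither of these copies passed (log2 fold changes 0.04 and 0.06, adjusted p = 0.621 and 0.659), against 98 of 125 V and J segments tested that did (78.4%). Within TRAV10 reads, the segment TRAV10 held 59.6% in CD4SP and 57.9% in CD8SP, TRAV10N held 29.5% and 30.8%, and TRAV10D 10.9% and 11.3%.

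Some J partners of TRAV10 differed between the fractions by larger folds than its overall use. Taking both directions together, such pairs were not more frequent in TRAV10 than over all V families. TRAV10 was seen with 43 J segments, of which 36 passed the filter on low counts. Tested as reads of the V family and J pair over all productive TRA reads, 9 pairs were higher in CD4SP and 8 were lower (24.9% and 35.7% of the 454 V family and J pairs tested were higher and lower, 60.6% in either direction). The median change was 0.03 over the 36 TRAV10 pairs and -0.25 over all 454. The 9 higher partners were TRAJ31, TRAJ43, TRAJ37, TRAJ27, TRAJ13, TRAJ15, TRAJ39, TRAJ17 and the rare TRAJ53. The 8 lower partners were TRAJ47, TRAJ22, TRAJ11, TRAJ45, TRAJ30, TRAJ26, TRAJ9 and TRAJ12. Shares of TRAV10 reads did not overlap between the 6 CD4SP and 6 CD8SP libraries for 7 of the 36 tested, or 19.4%: TRAJ31, TRAJ43 and TRAJ15 were above and TRAJ47, TRAJ22, TRAJ30 and TRAJ26 were below. Over all 454 pairs, taken as shares of the reads of their own V family, 24.4% did not overlap, 10.4% above and 14.1% below.

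Among the partners higher in CD4SP, TRAJ43 gave a lowest, median and highest library of 2.23%, 2.86% and 4.72% of TRAV10 reads in CD4SP and 0.236%, 1.13% and 2.09% in CD8SP (log2 fold change 1.58, SE 0.28, adjusted p = 1.06e-07). TRAJ37 gave 2.24%, 3.21% and 4.89% in CD4SP and 0.921%, 1.32% and 2.36% in CD8SP (1.37, SE 0.27, adjusted p = 1.18e-06). For TRAJ15 the shares were 4.13%, 5.30% and 5.72% in CD4SP and 2.66%, 2.999% and 3.57% in CD8SP (0.86, SE 0.20, adjusted p = 5.78e-05). All 6 mice had more of each of these 3 partners in CD4SP than in CD8SP. TRAJ27 averaged 4.59% in CD4SP and 2.31% in CD8SP, TRAJ13 3.36% and 1.98%, TRAJ17 3.34% and 2.28%, and TRAJ39 1.896% and 1.12%, each higher in 5 of 6 mice. Their log2 fold changes ran from 0.69 to 1.09 and their adjusted p from 4.00e-06 to 0.0175 in edgeR. Without KO mouse 1 TRAJ17 no longer passed (0.49, adjusted p = 0.119), nor did TRAJ39 without KO mouse 2 (0.66, adjusted p = 0.130). TRAJ18, the partner in the human invariant NKT chain, made 0.516%, 1.42% and 1.89% of TRAV10 reads in CD4SP and 0.118%, 0.688% and 1.41% in CD8SP. That pair did not pass at a log2 fold change of 0.83 (SE 0.44, adjusted p = 0.0918), but did with TMM (0.98) and with DESeq2 (1.07).

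Among the partners lower in CD4SP, TRAJ22 ran at 2.41%, 4.0003% and 6.07% of TRAV10 reads in CD4SP and 7.55%, 9.13% and 10.4% in CD8SP (log2 fold change -1.04, SE 0.16, adjusted p = 1.25e-09). TRAJ26 ran at 2.89%, 3.62% and 4.44% in CD4SP and 5.40%, 7.28% and 8.79% in CD8SP (-0.87, SE 0.18, adjusted p = 3.80e-06). TRAJ47 had the largest fold of the 8, with 0.269%, 0.646% and 0.700% in CD4SP and 1.11%, 2.14% and 2.87% in CD8SP (-1.82, SE 0.38, adjusted p = 7.06e-06). All 6 mice had less of these 3 in CD4SP than in CD8SP. TRAJ9 averaged 3.64% in CD4SP and 6.65% in CD8SP (-0.77, SE 0.18, adjusted p = 7.25e-05), and with each clonotype counted once its change was -0.08 and did not pass. TRAJ30 averaged 2.10% and 4.30%, TRAJ11 0.791% and 1.74%, TRAJ45 0.650% and 1.37%, and TRAJ12 4.22% and 6.02%, CD4SP first in each. Their adjusted p ran from 0.000266 to 0.0432. TRAJ11 no longer passed without KO mouse 2 (-0.71, adjusted p = 0.162). TRAJ45 was lost when any of 4 mice was left out (adjusted p up to 0.192, without KO mouse 2) and TRAJ12 when any of 5 was (up to 0.136, without WT mouse 3). TRAJ23, one of the 5 most used partners together with TRAJ31, TRAJ22, TRAJ26 and TRAJ9, averaged 6.30% in CD4SP and 7.65% in CD8SP and did not pass.

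**Figure D2:**
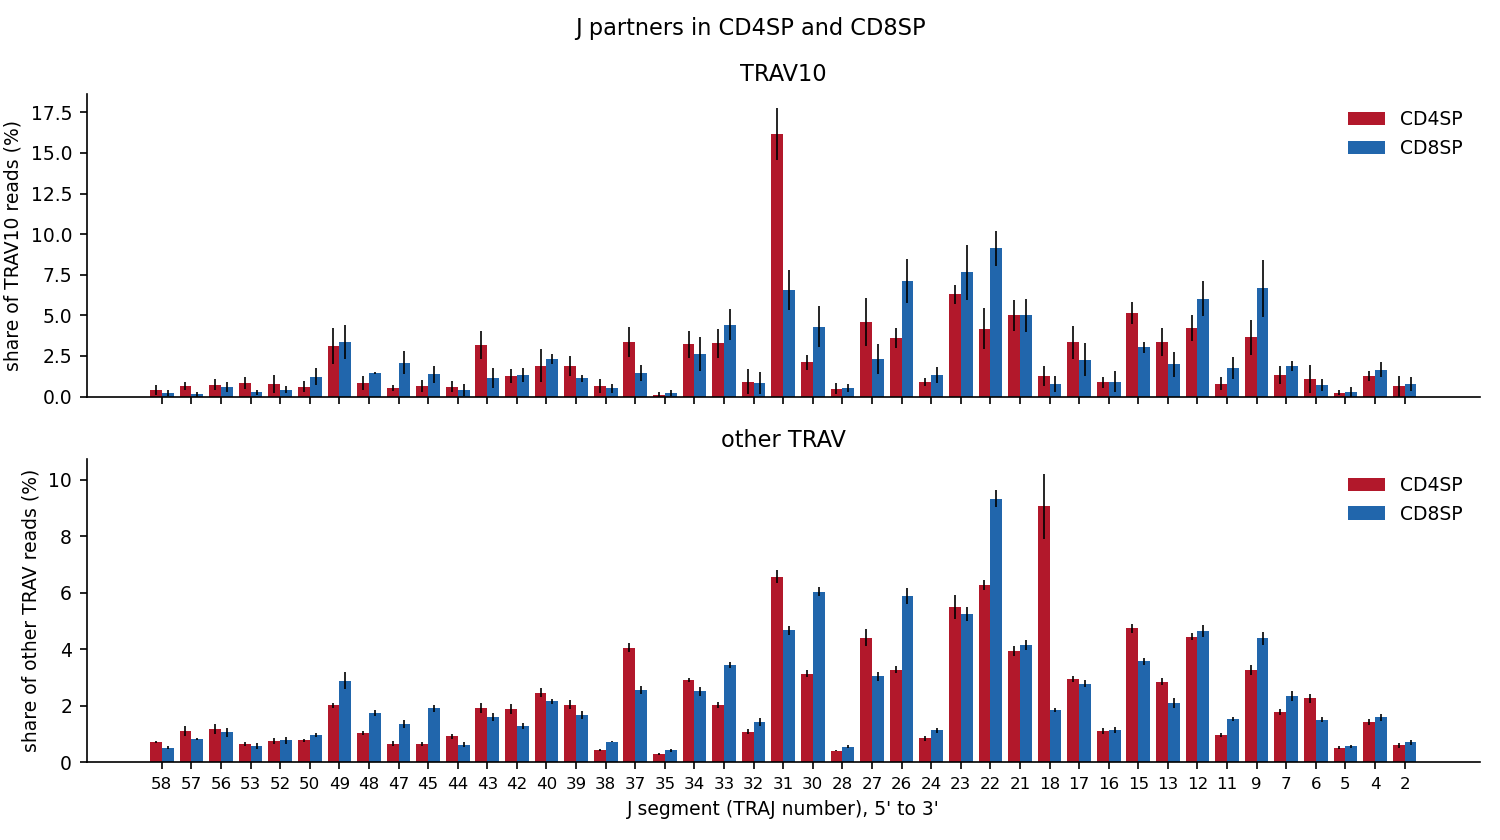
Share of reads (%) by J segment in CD4SP (red) and CD8SP (blue) cells, for TRAV10 above and for other TRAV below, with J segments in locus order from 5′ to 3′. Bars are means over 6 libraries with SD. In TRAV10, TRAJ31 stands out in CD4SP at 16.2% and TRAJ22, TRAJ26 and TRAJ9 are higher in CD8SP. In other TRAV, TRAJ31 stands at 6.58% and TRAJ18 at 9.07% in CD4SP.

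TRAJ31 was the most frequent partner of TRAV10 in CD4SP cells and the pair with the smallest p in the family. It made 17.6%, 15.3% and 18.7% of TRAV10 reads in KO CD4SP and 15.7%, 15.02% and 14.7% in WT CD4SP. In CD8SP it made 8.52%, 7.54% and 5.26% in KO and 6.01%, 6.22% and 5.75% in WT. Every CD4SP library lay above every CD8SP library, with means of 16.2 ± 1.61% and 6.55 ± 1.23% (SD, n = 6), and the pair rose by 1.41 on the log2 scale (SE 0.13, adjusted p = 5.45e-27, edgeR). Leaving out each mouse in turn gave 1.31 to 1.49. The pair held 942 reads in 329 clonotypes and 149 joins in CD4SP and 429 reads in 181 clonotypes and 116 joins in CD8SP, and its largest clonotype had 20 reads in CD4SP and 13 in CD8SP. With each clonotype counted once, its change was smaller at 0.88 (adjusted p = 8.92e-11). As a share of TRAV10 clonotypes, it made 10.1% to 12.6% in CD4SP and 5.48% to 8.37% in CD8SP.

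Nonproductive TRAV10 rearrangements, which encode no receptor chain, were few. TRAJ31 made 25 of 311 nonproductive TRAV10 reads in CD4SP, or 8.04% (95% Clopper-Pearson interval 5.27% to 11.6%), and 35 of 341 in CD8SP, or 10.3% (7.25% to 13.98%). These intervals overlap and cover the counting error of reads only, with reads taken as independent. By library the share averaged 8.47 ± 6.47% in CD4SP and 10.4 ± 6.21% in CD8SP (SD, n = 6 each). The ranges of the libraries overlap, and the share was higher in CD4SP in 3 of 6 mice.

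Set against all other V segments, TRAV10 used TRAJ31 more in both fractions. TRAJ31 made 16.2% of TRAV10 reads and 6.58 ± 0.218% of other TRAV reads in CD4SP, and 6.55% and 4.67 ± 0.153% in CD8SP. An edgeR fit of J use with the library as a block, chosen after the data had been seen, gave a log2 ratio of 1.29 in CD4SP (SE 0.065, adjusted p = 3.43e-24) and 0.48 in CD8SP (SE 0.12, adjusted p = 0.0110). Of 43 J segments, 8 differed between TRAV10 and other TRAV in CD4SP (18.6%) and 10 in CD8SP (23.3%). The ratio of TRAV10 to other TRAV differed between CD4SP and CD8SP for 4 of the 43 (9.3%): TRAJ31 by 0.81 (SE 0.13, adjusted p = 6.88e-06), TRAJ43 by 1.20, TRAJ22 by -0.57 and TRAJ18 by -1.66. That fit took the CD4SP and CD8SP libraries of 1 mouse as separate units and did not use their pairing. With each clonotype counted once, none of the 4 passed, and the TRAJ31 difference was 0.27 (adjusted p = 0.228), while TRAJ31 itself kept 0.74 in CD4SP and 0.47 in CD8SP, both past the threshold. The TRAJ18 difference turned to 0.31 when the invariant NKT chain, which holds most TRAJ18 reads of the other V segments in CD4SP, was left out. Among 15 V families with enough reads, TRAV10 had the highest TRAJ31 share in CD4SP, ahead of TRAV5 at 8.97%, and ranked 2 in CD8SP behind TRAV1 at 8.70%. Its excess of CD4SP over CD8SP, 9.61 percentage points, was also the largest of the 15, followed by 5.49 for TRAV14. By the log2 fold change of the pair with TRAJ31, TRAV10 ranked 3 of 13 families.

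**Figure D3:**
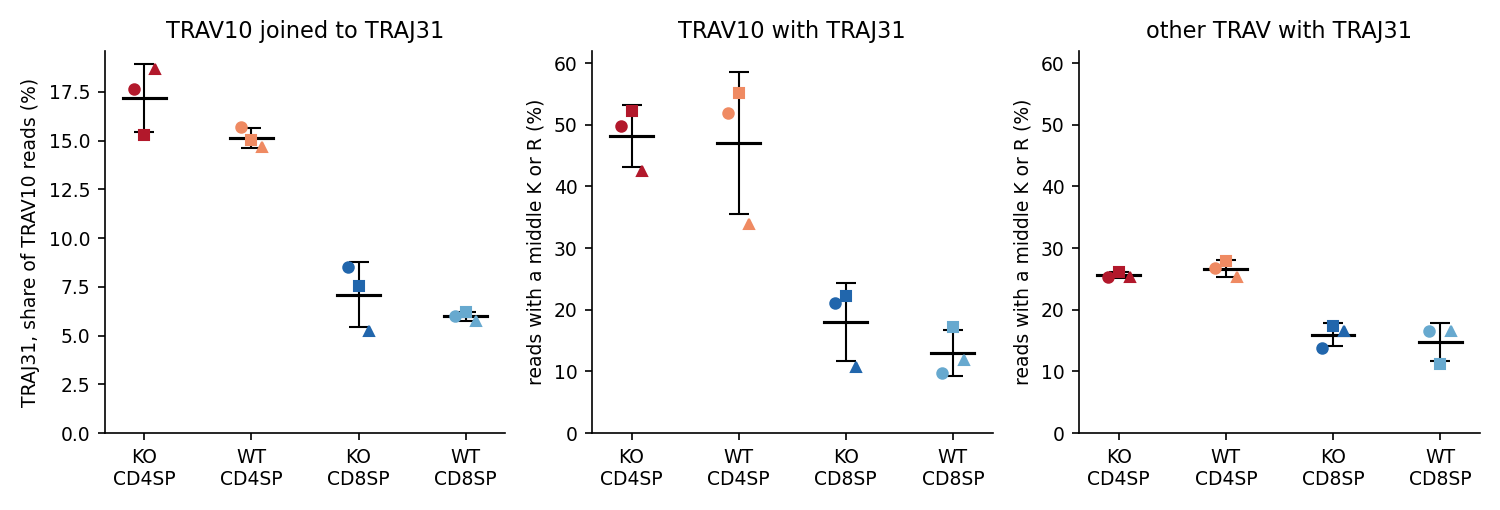
TRAJ31 in TRAV10 reads per library, in KO and WT CD4SP and KO and WT CD8SP cells, with the mean and SD of 3 libraries and symbols by replicate number. The panels give the TRAJ31 share of TRAV10 reads (%) and the share of reads with a lysine (K) or arginine (R) in the middle of the CDR3 (%), for TRAV10 with TRAJ31 and for other TRAV with TRAJ31. CD4SP libraries lie between 14.7% and 18.7% and CD8SP libraries between 5.26% and 8.52% for the TRAJ31 share.

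The TRAV10 with TRAJ31 joins of CD4SP cells were rich in basic residues in the middle of the CDR3. The middle of the CDR3 was taken as the residues after the first 4 and before the last 6, a measure chosen after the joins had been seen and so given without a test. A basic residue at position 4 is not counted, as in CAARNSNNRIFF, which had more reads in CD8SP than in CD4SP. A lysine or arginine stood there in 49.8%, 52.2% and 42.5% of these reads in KO CD4SP and 52.0%, 55.2% and 33.9% in WT CD4SP. The CD8SP libraries gave 21.1%, 22.2% and 10.7% in KO and 9.80%, 17.1% and 11.9% in WT. No CD8SP library reached a CD4SP one, with means of 47.6 ± 7.95% and 15.5 ± 5.42% (SD, n = 6). Counted over clonotypes the means were 40.5 ± 7.20% and 16.5 ± 7.07%. At residue 5, the first position set by the junction in most of these joins, arginine made 25.6% and lysine 21.02% of the 942 CD4SP reads, against 6.76% and 3.50% of the 429 CD8SP reads. In CD8SP asparagine was the most frequent residue there at 21.7%, followed by serine at 16.8%. The asparagine reads include those of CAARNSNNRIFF, whose arginine is residue 4.

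Other V segments joined to TRAJ31 showed a smaller difference in the same direction. Their reads with a middle lysine or arginine averaged 26.1 ± 1.08% in CD4SP and 15.4 ± 2.37% in CD8SP. TRAV10 was therefore 21.5 percentage points above them in CD4SP (SD of the differences 7.21, higher in 6 of 6 mice) but 0.119 points above in CD8SP (SD 6.49, higher in 3 of 6). Acidic middle residues were less frequent in TRAV10 with TRAJ31 than in other TRAV with TRAJ31 in both fractions: aspartate or glutamate stood in 3.58% of TRAV10 with TRAJ31 reads and 20.4% of other TRAV with TRAJ31 reads in CD4SP, and in 12.5% and 35.4% in CD8SP. TRAV10 joined to the other J segments leaned the same way, with a basic middle in 21.9 ± 2.33% of reads in CD4SP and 8.33 ± 0.819% in CD8SP and an acidic middle in 9.94 ± 0.890% and 23.0 ± 1.95%.

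The 3 copies used different parts of the J cluster, and the order did not follow their order on the reference assembly. The strain of these mice is not given, so positions here are those of the reference. J segments are numbered from 3′ to 5′, so a low number lies near TRAC. TRAJ1 to TRAJ21, the 3′ group, took 20.03 ± 3.75% of the reads of TRAV10, 35.98 ± 5.42% of TRAV10D and 55.3 ± 4.65% of TRAV10N in CD4SP (SD, n = 6). In CD8SP the same shares were 21.5 ± 2.46%, 38.1 ± 5.71% and 54.5 ± 6.93%. In each of 6 mice and both fractions, TRAV10 had the lowest 3′ share and TRAV10N, the copy in the middle by position, the highest. An exact sign-flip test gave p = 0.031 for each pair of copies, the smallest that 6 mice allow, and 0.0511 after adjustment over 18 copy comparisons, which does not pass. Nonproductive rearrangements were pooled over the 12 libraries because they were few. There the 3′ group took 21.7% of 406 reads of TRAV10 (95% interval 17.8% to 26.0%), 41.1% of 73 reads of TRAV10D (29.7% to 53.2%) and 47.4% of 173 reads of TRAV10N (39.8% to 55.1%). These intervals cover counting error only and leave out the spread between libraries.

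Single J segments were compared between copies with edgeR over the 12 libraries, also chosen after the data had been seen. The fit took the CD4SP and CD8SP libraries of 1 mouse as separate units, so its p values may be too small. Of 29 J segments that could be tested between TRAV10 and TRAV10N, 13 were higher and 9 lower in TRAV10 (44.8% and 31%). The lower ones were 9 of the 12 J segments tested from TRAJ1 to TRAJ21, and the higher ones were 8 of 12 from TRAJ22 to TRAJ41 and 5 of 5 from TRAJ42 to TRAJ61. TRAJ31 was 1.66 higher on the log2 scale in TRAV10 than in TRAV10N (SE 0.18, adjusted p = 6.29e-15), and TRAJ9 was 2.24 lower (log2 ratio -2.24, SE 0.21, adjusted p = 1.70e-18). Between TRAV10 and TRAV10D, 2 of 24 J segments passed (8.33%): TRAJ31 was higher by 1.14 (SE 0.39, adjusted p = 0.0420) and TRAJ9 lower at -1.54 (SE 0.37, adjusted p = 0.00105). Neither passed without clonotypes of 1 read. Between TRAV10N and TRAV10D edgeR called 0 of 18 (0%), of which 5 had an unadjusted p below 0.05, and DESeq2 was not run on these small tables. The mean share of TRAJ31 was higher in CD4SP than in CD8SP in each copy, without a test by copy: it made 21.9 ± 2.20% of TRAV10 reads, 7.76 ± 3.25% of TRAV10D reads and 7.27 ± 1.61% of TRAV10N reads in CD4SP, and 8.71 ± 1.95%, 6.07 ± 4.06% and 2.65 ± 1.33% in CD8SP. For TRAV10D these ranges overlap widely, from 1.96% to 11.4% in CD4SP and from 0% to 10.8% in CD8SP.

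**Figure D4:**
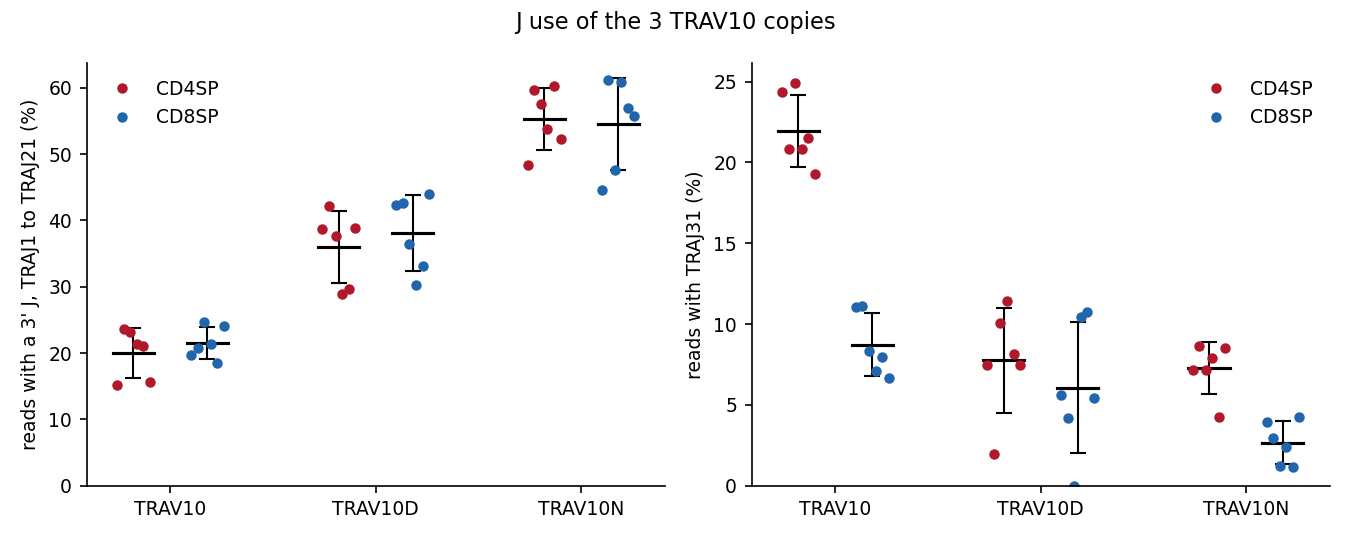
Share of the reads of TRAV10, TRAV10D and TRAV10N (%) with a J segment from TRAJ1 to TRAJ21 and with TRAJ31, in CD4SP (red) and CD8SP (blue) cells. Points are libraries, and the bar and whiskers are the mean and SD of 6 libraries. TRAV10 has the most TRAJ31 and the fewest 3′ J segments on average, and TRAV10N has the most 3′ J segments, 55.3% in CD4SP and 54.5% in CD8SP.

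Most TRAV10 joins were seen in 1 library. Of 3353 joins, 2525 (75.3%) occurred in 1 library and 3 in all 12. The 49 joins present in 7 to 12 libraries held 20.9% of TRAV10 reads. Their clonotypes averaged 0.497 added nucleotides, and 70.8% of them had none, against 3.13 added and 14.2% without in the joins of 1 library. Other TRAV joins in 7 to 12 libraries averaged 0.929 added nucleotides with 52.0% without any, and held 35.7% of other TRAV reads, which include the invariant NKT chain. As a description with no test, the public TRAV10 joins thus had fewer added bases than the public joins of other V segments. They were also shorter, at 12.6 residues on average against 13.3 in the joins of 1 library.

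The 3 joins found in all 12 libraries were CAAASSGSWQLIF with TRAJ22 (171 reads), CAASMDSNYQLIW with TRAJ33 (102) and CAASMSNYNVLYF with TRAJ21 (98). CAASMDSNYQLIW came from a single nucleotide sequence, found with all 3 copies, in which the V and J ends share 4 bases. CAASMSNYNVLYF also has a 4 base overlap and was spelled by 4 nucleotide sequences, of which the one shown held 92 of the 98 reads. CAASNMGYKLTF with TRAJ9 (245 reads) and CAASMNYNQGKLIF with TRAJ23 (157) were found in 11 libraries, and so was a TRAJ12 join with 76 reads. Found in 10 libraries were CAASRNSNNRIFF (147 reads), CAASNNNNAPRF (78), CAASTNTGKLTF with TRAJ27 (70) and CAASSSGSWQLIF with TRAJ22 (64). Those in 9 libraries with the most reads were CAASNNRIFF (76), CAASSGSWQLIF with TRAJ22 (65), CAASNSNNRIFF with TRAJ31 (51), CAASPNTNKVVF with TRAJ34 (48) and a TRAJ12 join (46). In 14 of these 15 joins the most frequent nucleotide sequence had 0 added bases, the exception being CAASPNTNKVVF with 1. The TRAJ12 joins are shown as nucleotides, the one in 11 libraries first; they differ in how far the V end was trimmed.
TRAJ12 join in 11 libraries: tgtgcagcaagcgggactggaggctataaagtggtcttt
TRAJ12 join in 9 libraries: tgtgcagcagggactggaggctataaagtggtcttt

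**Figure D5:**
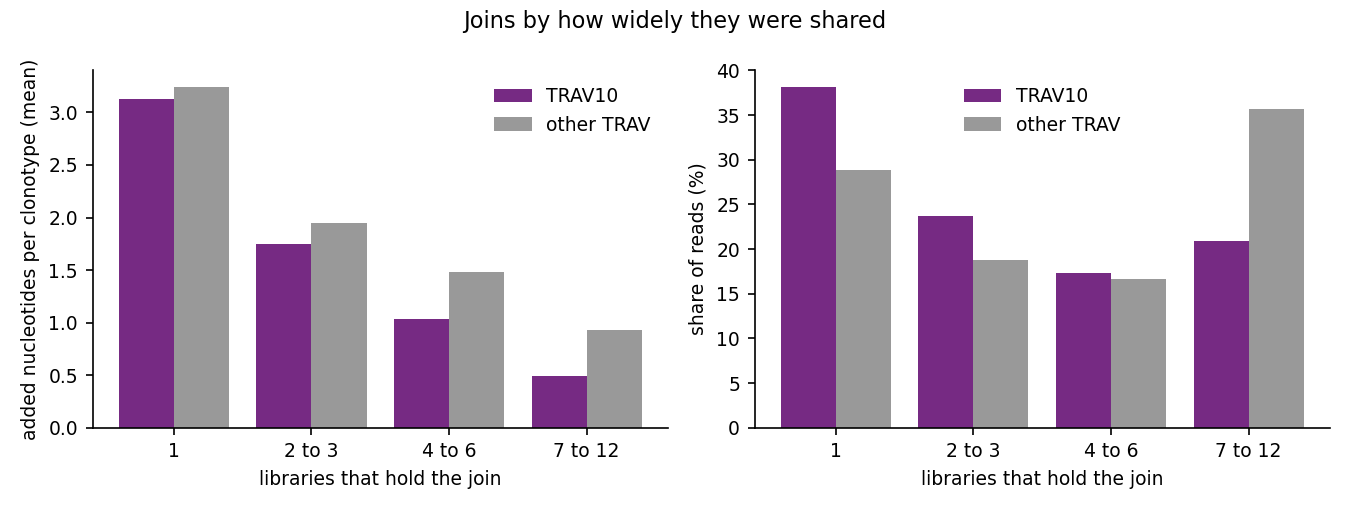
TRAV10 joins and other TRAV joins grouped by how many of the 12 libraries hold them. One panel gives the mean number of added nucleotides per clonotype and the other the share of reads (%), as bars without an error since each is 1 value over all libraries. In joins of 7 to 12 libraries, TRAV10 has 0.497 added nucleotides and 20.9% of reads, and other TRAV 0.929 and 35.7%.

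As a description, more joins were shared within a fraction than between fractions, with ranges that overlap. Between CD4SP libraries of different mice, a median of 16.9% of either library's TRAV10 joins was shared (range 13.7% to 23.98% over 15 pairs), and between CD8SP libraries 15.3% (12.02% to 19.5%, 15 pairs). Between a CD4SP and a CD8SP library of different mice, the median was 12.2% of the CD4SP joins and 12.6% of the CD8SP joins (30 pairs, ranges 7.65% to 15.8% and 9.16% to 16.7%). Within a mouse it was 11.9% of the CD4SP joins and 12.8% of the CD8SP joins (6 pairs, ranges 7.81% to 14.2% and 10.2% to 13.5%), and these ranges overlap those of different mice. Joins of the other V segments had the same order: as a share of the smaller library's joins, the medians between mice were 18.3% for TRAV10 and 24.1% for other TRAV within CD4SP, 15.8% and 21.8% within CD8SP, and 13.3% and 19.2% between the fractions. Of 379 TRAV10 joins found in at least 3 libraries, 47 (12.4%) were in CD4SP libraries only and 40 (10.6%) in CD8SP libraries only. Of these, 10 and 1 used TRAJ31, and the share of TRAJ31 among all 379 was not counted. Of 10747 joins of other V segments found in at least 3 libraries, 921 (8.57%) were in CD4SP libraries only and 888 (8.26%) in CD8SP libraries only. In at least 5 CD4SP libraries and in no CD8SP library were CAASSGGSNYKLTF with TRAJ53 (23 reads) and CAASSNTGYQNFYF with TRAJ49 (16). The reverse held for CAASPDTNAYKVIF with TRAJ30 (27), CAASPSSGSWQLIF with TRAJ22 (26) and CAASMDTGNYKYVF with TRAJ40 (11). Joins of other V segments were not counted at this cut.

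Joins were also compared by their reads, although only 12 of the 3353 passed the filter on low counts. A join could pass through the fraction in which it is frequent, so the counts describe these 12. Of them, 6 were higher and 2 lower in CD4SP than in CD8SP (27.5% and 27.2% of the 426 joins tested over all V families, 54.7% in either direction). Of the 6 higher, 4 used TRAJ31. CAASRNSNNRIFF, the direct join with arginine, had 39, 23 and 12 reads in KO CD4SP, 26, 24 and 10 in WT CD4SP, 2, 5 and 0 in KO CD8SP and 0, 2 and 4 in WT CD8SP (log2 fold change 3.62, SE 0.62, adjusted p = 2.84e-06, edgeR). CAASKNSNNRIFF, with lysine in the same place, had 14, 20 and 13 reads in KO CD4SP and 16, 15 and 8 in WT CD4SP. In CD8SP it had 4 reads in WT mouse 2 and 0 in the other 5 libraries (4.94, SE 0.91, adjusted p = 1.35e-05). For both joins every CD4SP library lay above every CD8SP library. How often the libraries separated in this way over the 426 joins tested was not counted.

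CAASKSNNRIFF, also with lysine and 1 codon shorter, had 14, 7 and 14 reads in KO CD4SP, 11, 6 and 2 in WT CD4SP, and 4 reads in 1 of 6 CD8SP libraries, that of KO mouse 2 (4.34, SE 1.17, adjusted p = 0.00183). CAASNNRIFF, whose V and J ends share 4 bases and which has no basic residue at the junction, had 11, 24 and 6 reads in KO CD4SP, 11, 10 and 2 in WT CD4SP, 0, 0 and 2 in KO CD8SP and 3, 0 and 7 in WT CD8SP (2.84, SE 0.97, adjusted p = 0.0120). Without KO mouse 2 that join no longer passed (2.32, adjusted p = 0.0871). Not all TRAJ31 joins leaned to CD4SP: the public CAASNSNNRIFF had 25 reads in CD4SP and 26 in CD8SP, and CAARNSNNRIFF 10 and 25, neither of them tested. The arginine of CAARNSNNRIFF lies ahead of the CDR3 middle as measured above, so that join was not counted there as basic.

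The other 2 higher joins used TRAJ15 and TRAJ43. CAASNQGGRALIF had 15, 13 and 5 reads in KO CD4SP, 11, 8 and 4 in WT CD4SP, 0, 0 and 0 in KO CD8SP and 2, 0 and 4 in WT CD8SP (3.68, SE 1.07, adjusted p = 0.00337). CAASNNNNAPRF had 14, 12 and 12 in KO CD4SP, 2, 11 and 9 in WT CD4SP, 4, 3 and 0 in KO CD8SP and 0, 9 and 2 in WT CD8SP (2.36, SE 0.84, adjusted p = 0.0154), and without KO mouse 3 it no longer passed (1.93, adjusted p = 0.0793). Libraries of the 2 fractions overlapped for the TRAJ43 join and met at 4 reads for the TRAJ15 join. The lower joins used TRAJ9 and TRAJ22. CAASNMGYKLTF, the TRAV10 join with the most reads, had 0, 8 and 4 in KO CD4SP, 5, 7 and 7 in WT CD4SP, 13, 46 and 30 in KO CD8SP and 33, 31 and 61 in WT CD8SP (-2.53, SE 0.47, adjusted p = 1.47e-05). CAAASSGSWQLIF had 11, 2 and 3 in KO CD4SP, 3, 8 and 5 in WT CD4SP, 19, 20 and 18 in KO CD8SP and 26, 39 and 17 in WT CD8SP (-1.90, SE 0.52, adjusted p = 0.00195). For both, all CD8SP libraries lay above all CD4SP libraries, again without a count over all joins tested. The 4 joins that did not pass were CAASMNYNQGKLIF (-0.78), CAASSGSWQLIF (-0.92), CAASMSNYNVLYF (0.41) and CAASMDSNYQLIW (-0.30), with adjusted p from 0.230 to 0.692.

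Several summaries over all TRAV10 reads of a library lay apart in the 2 fractions, although none passed the paired test. Net CDR3 charge (lysine and arginine minus aspartate and glutamate) averaged 1.01 ± 0.0462 in CD4SP and 0.556 ± 0.0345 in CD8SP, higher in CD4SP in 6 of 6 mice with no overlap. Hydropathy of residues 6 and 7 averaged -1.48 ± 0.0508 in CD4SP and -1.21 ± 0.0487 in CD8SP, lower in CD4SP in 6 of 6. TRAV10 clonotypes had 2.01 ± 0.115 reads each in CD4SP and 2.42 ± 0.129 in CD8SP, and 1.73 ± 0.0720 and 1.92 ± 0.155 added nucleotides. Of 13 such measures, 5 reached the smallest p of the exact sign-flip test over 6 mice, 0.031, which is 0.0813 after adjustment over the 13 and does not pass. An exact permutation of the 12 labels without regard to the mouse called 6 of the 13. CDR3 length, the share without added bases and the shares of 5′ and 3′ J segments were not among them.

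Against other V segments, TRAV10 had shorter and more basic CDR3s and fewer nonproductive reads in every mouse, although none of these passed the paired test. CDR3 length averaged 13.02 ± 0.0656 residues in TRAV10 and 13.4 ± 0.0142 in other TRAV in CD4SP, and 13.03 ± 0.0915 and 13.5 ± 0.0168 in CD8SP. Net charge was 1.01 in TRAV10 and 0.790 in other TRAV in CD4SP and 0.556 and 0.460 in CD8SP. Nonproductive reads made 5.08 ± 0.986% of TRAV10 and 7.63 ± 0.224% of other TRAV reads in CD4SP, and 4.97 ± 1.16% and 7.94 ± 0.351% in CD8SP. Joins also found in another library made 51.6 ± 3.24% of TRAV10 joins and 57.7 ± 1.04% of other TRAV joins in CD4SP, and 49.4 ± 2.09% and 55.1 ± 1.19% in CD8SP. Each of these differences had the same sign in 6 of 6 mice in both fractions. Of 20 measures, the exact sign-flip test called 0 after adjustment (p = 0.031, adjusted 0.0625, for those at its smallest p), and the exact permutation of labels called 11.

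No TRAV10 feature passed between KO and WT in either fraction. The family's log2 fold change was -0.010 in CD4SP (SE 0.067, adjusted p = 0.925) and -0.0050 in CD8SP (SE 0.066, adjusted p = 0.947), and the difference between these effects was -0.0042 (SE 0.090, adjusted p = 0.963). These signs were not stable to scaling: TMM gave 0.02 and 0.10. Among families, 1 of 20 passed in CD4SP (5%), TRAV11 at 0.24, and 0 in CD8SP (0%). For the 3 segments edgeR called 0 in either fraction, with 0 at an unadjusted p under 0.05 and 0 by DESeq2 (1.6% and 0% of 125 segments were called). KO means of the segment TRAV10 were 2.28% in CD4SP and 2.02% in CD8SP, against 2.20% and 2.02% in WT.

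Of the 36 J pairs, edgeR called 0 in CD4SP and 0 in CD8SP, where 2 in each fraction had an unadjusted p below 0.05 and DESeq2 also called 0 (0% and 0.22% of the 454 pairs were called). The pair of smallest p in CD4SP was TRAJ6 (log2 fold change 1.902, SE 0.67, adjusted p = 0.537, edgeR). It made 1.10%, 2.58% and 1.28% of TRAV10 reads in KO and 0.103%, 0.897% and 0.403% in WT. Next came TRAJ9 (-0.61), TRAJ50 (-1.33), TRAJ17 (0.53) and TRAJ21 (-0.39), with adjusted p from 0.849 to 0.895. In CD8SP the pair of smallest p was TRAJ49 (0.67, SE 0.30, adjusted p = 0.764, edgeR), at 3.23%, 4.69% and 4.51% in KO and 2.95%, 2.13% and 2.66% in WT. It was followed by TRAJ13 (-0.76), TRAJ47 (0.82), TRAJ43 (0.74) and TRAJ9 (-0.33), with adjusted p from 0.764 to 0.832. For the difference of KO effects between the fractions, 0 pairs were called by edgeR (0% of 454) and 0 by DESeq2, and 1 had an unadjusted p below 0.05. The 5 of smallest p were TRAJ50 (-2.06), TRAJ49 (-0.90), TRAJ21 (-0.65), TRAJ13 (0.82) and TRAJ37 (0.82), with adjusted p from 0.765 to 0.837. TRAJ31 changed by 0.17 in CD4SP (SE 0.16, adjusted p = 0.915) and 0.24 in CD8SP (SE 0.19, adjusted p = 0.832), with the KO libraries overlapping those of WT in both.

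The 12 public joins tested gave 0 calls in either fraction in edgeR and in DESeq2 (0% and 0% of 426 joins were called), with 0 at an unadjusted p under 0.05 in CD4SP and 1 in CD8SP. That join was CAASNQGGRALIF, at 0 reads in 3 of 3 KO CD8SP libraries and 2, 0 and 4 in WT CD8SP (adjusted p = 0.997). In CD8SP it was followed by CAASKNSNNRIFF and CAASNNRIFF (also adjusted p = 0.997), and in CD4SP the joins of smallest p were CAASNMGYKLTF (-1.05), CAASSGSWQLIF (-1.54) and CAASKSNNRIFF (0.81), all at an adjusted p of 1. Of the 13 summaries, 0 passed in either fraction, where the smallest p of the exact sign-flip test over 3 pairs is 0.25. KO and WT did not overlap for net charge in CD4SP, at 1.05, 1.07 and 1.03 in KO and 0.974, 1.02 and 0.946 in WT (p = 0.25, exact sign-flip test). They did not overlap either for the share of 5′ J segments (TRAJ42 to TRAJ61) in CD8SP, at 14.7%, 16.6% and 15.5% in KO and 12.1%, 13.5% and 11.5% in WT (p = 0.25, exact sign-flip test). An exact permutation of labels gave p = 0.1 for each, the smallest that 3 against 3 libraries allow. No other of the 13 summaries reached it in its fraction.

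Over the 12 libraries, the log2 share of TRAV10 moved most like that of TRAV21 (Pearson r = 0.77), TRAV4 (0.70) and TRAV14 (0.68) among 14 other families with enough reads. These shares come from the same libraries and sum to a whole, the libraries form 2 fractions, and the correlations are a description only.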

How the data were processed

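The deposited tables, 1 of alpha and delta chain clonotypes per library, hold read counts per clonotype as made by the authors, and a fraction of the library's reads that was used only to check the counts. MiXCR and VDJtools are named in the series' design text, whose MiXCR version is not given in the sources used here, and the mm10 build is given per the submitters' processing notes. The kit's reads carry no molecule counts here, so exact Clopper-Pearson 95% intervals cover the counting error of reads only. They take reads as independent, although reads of 1 clonotype share their J segment. Of 24 files, 12 were used; the beta chain tables were not used here.

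Members followed the V segment rule, and clonotypes with equal V, J and CDR3 nucleotides were summed. Counts per family, segment, V family and J pair, or join were fitted over the whole table with edgeR 4.0.16 (filterByExpr, quasi-likelihood test, library size the productive TRA reads with no further scaling, Benjamini-Hochberg over the table, threshold 0.05) in R 4.3.3. All 12 libraries entered each fit, with the mouse as a block for CD4SP against CD8SP and for the difference between KO effects, and the pair of mice as a block for KO against WT. J use against other TRAV and between copies was fitted with the library as a block, the copies at a lower count filter of 3, both chosen after seeing the data. Alternatives were TMM factors, DESeq2 1.42.0, no filter, no replicate block, only the libraries of 1 fraction, joins without the J segment, each clonotype counted once, no clonotypes of 1 read, no tied V matches, no invariant NKT chain, and each mouse or library left out. Summaries per library were compared with exact sign-flip and label permutation tests, two-sided, in Python 3.11.15 with scipy 1.17.1, numpy 2.4.6 and pandas 2.3.3, and plots were drawn with matplotlib 3.10.9. The fits were tested on simulated data.

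Named J partners were those past the threshold with at least 1% of TRAV10 reads (the 5 of smallest p where fewer than 5 passed), the most used 5 and TRAJ18. Named joins were the 15 in most libraries, those past the threshold and, where none passed, the 3 of smallest p; further joins and TRAJ53 were chosen after their values were seen. Members, lists and measures were chosen with earlier results of these data known. The design text names pairs of mice, so KO and WT libraries of 1 number were taken as a pair. Deviations from group means over 61 V segments correlated at -0.343 to 0.0234 within KO and WT libraries of 1 number, and at -0.0376 to 0.565 between the CD4SP and CD8SP libraries of 1 mouse.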

Additional observations from a re-analysis of the deposited data

Results flagged for a closer look

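Of 76 groups of 6 libraries looked at, 2 held a library far from the others, where chance gives about 1 in 20. Hydropathy of CDR3 residues 6 and 7 in TRAV10 reads was -1.31 in KO CD8SP library 1, while the other CD8SP libraries lay between -1.21 and -1.17. TRAJ37 made 2.36% of TRAV10 reads in WT CD8SP library 1, while the other CD8SP libraries lay between 0.921% and 1.43%. The CD4SP libraries, at 2.24% to 4.89%, overlap with that library alone.

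The share of TRAJ49 in TRAV10 reads was picked because KO minus WT had opposite signs in the 2 fractions. The number of shares looked at for this pattern was not counted. KO minus WT was below 0 in 3 of 3 pairs in CD4SP (mean -0.414 percentage points) and above 0 in 3 of 3 pairs in CD8SP (mean 1.56), a difference of -1.98 percentage points. As reads of the pair, the difference between the KO effects was -0.90 on the log2 scale in edgeR and did not pass (adjusted p = 0.765).

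The use of 4 J segments by TRAV10 relative to other TRAV differed between CD4SP and CD8SP in edgeR. The log2 differences, CD4SP minus CD8SP, were 0.81 for TRAJ31, 1.20 for TRAJ43, -0.57 for TRAJ22 and -1.66 for TRAJ18, with adjusted p from 6.88e-06 to 0.0107. The fit did not pair the libraries of 1 mouse. For TRAJ18 the share among other TRAV reads, 9.07% in CD4SP and 1.85% in CD8SP, contains the invariant NKT chain. Without that chain the TRAJ31 difference was 0.71.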

How the results depend on the processing

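Of 165 settings tried for whole comparisons, 147 kept the direction and the side of the threshold, or a count within 1.5 times, as did 268 of 313 for single features. The family's difference between CD4SP and CD8SP (0.11) ran from 0.088 to 0.12 when each mouse was left out and lost the threshold without KO mouse 1 or WT mouse 2. The family's KO effects, all near 0, changed sign: in CD4SP (-0.010) they were 0.023 with TMM, 0.11 with DESeq2, 0.037 with each clonotype once, 0.010 without the invariant NKT chain and -0.045 to 0.020 with libraries left out. In CD8SP (-0.0050) they were 0.095, 0.099 and 0.0083 with TMM, DESeq2 and each clonotype once, and -0.069 to 0.048 with libraries left out. The difference between the KO effects (-0.0042) was 0.012 with DESeq2, 0.029 with each clonotype once, 0.016 without the invariant NKT chain and -0.053 to 0.033 with mice left out. None of these KO values passed the test.

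Between CD4SP and CD8SP, 1 of 3 segments passed, against 2 with each clonotype once and 3 without tied V matches. Of the joins 8 passed, against 4 with no filter on low counts, where more features are tested. TRAV10D (0.06) was -0.0026 without clonotypes of 1 read and -0.013 to 0.16 with mice left out. TRAJ23 (-0.14) was 0.0065 with TMM, 0.060 with DESeq2 and 0.080 with each clonotype once. TRAJ21 ran from -0.052 to 0.22 with mice left out. TRAJ49 (-0.0059) was 0.14 with TMM, 0.20 with DESeq2, 0.054 without the replicate block, 0.088 without clonotypes of 1 read, 0.093 without the invariant NKT chain and -0.24 to 0.22 with mice left out. Counts with mice left out were 12 to 17 for J pairs (17 in the fit to all) and 8 to 12 for joins. Against other TRAV, J use gave 1 call in CD4SP with each clonotype once (8 with reads) and 0 for the difference between fractions (4 with reads). In those settings TRAJ22 in CD8SP was 0.18, and the TRAJ18 difference 0.28, or 0.31 without the invariant NKT chain. TRAV10 against TRAV10D gave 0 calls without clonotypes of 1 read. Where no cause is named, the cause was not tested.

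Without the replicate block, the family difference was 0.11 (adjusted p = 0.0339, edgeR), 1 segment, 17 J pairs and 8 joins passed between CD4SP and CD8SP, and permuting labels without pairing called 6 of 13 measures between the fractions and 11 of 20 against other TRAV. The block changed no KO call. For the measures, leaving out a mouse was not run, since 5 mice cannot give a p below 0.0625. With 744 to 1194 TRAV10 reads a library, few joins hold enough reads to be tested.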
